A study of Mus musculus with 6 samples.

Results

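Endothelial cells line every blood and lymphatic vessel, and they are recognised in tissue by a small set of genes for junctions, receptors, transcription factors and stored proteins. The 10 genes described here were Cdh5, Pecam1, Kdr, Flt1, Tek, Tie1, Sox7, Sox17, Sox18 and Vwf. They were found through the platform's annotation as every probe set whose single gene symbol is one of these names, which gave 16 of the 45101 probe sets on the array and 10 of the 18193 genes that could be tested. The question was in which compartment of the early mouse bladder their signal lay, and how far each member, probe set and array bore out the label.

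The samples came from mouse embryos of strain FVB/N, wild type and of unknown sex, taken on embryonic day 13 at Theiler stage 21. Mesenchyme, the sleeve of connective tissue and future muscle, had 3 arrays (replicates 1, 2 and 4), and urothelium, the epithelium inside it, also had 3 (replicates 5, 7 and 8). Bladders cut off above the ureters were held in 20 µM EDTA for 20 minutes and the layers were then parted with a needle, with no sorting of cells. RNA of each sample, not pooled according to the labels, was amplified in 2 rounds and hybridised to 1 Affymetrix mouse array. Whether the arrays of a compartment came from different embryos is not stated in the labels, so the spread behind each p-value is that of these samples and may be technical.

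In background terms, vascular endothelium is driven by VEGF, which acts through the receptor tyrosine kinases encoded by Kdr (the main signalling receptor) and Flt1 (a high-affinity receptor that also exists as a soluble decoy). Angiopoietins act on the kinase encoded by Tek, with Tie1 as its partner receptor. Cdh5 and Pecam1 encode VE-cadherin and CD31, adhesion molecules of the contacts between endothelial cells. Sox7, Sox17 and Sox18 form the SoxF group of transcription factors of vessel development. Vwf encodes von Willebrand factor, the clotting protein that endothelial cells store and release.

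The promoters of Kdr, Flt1, Tek and Tie1 are shown because these were the only members with a window in the promoter table used. The RefSeq promoter table (build GRCm38.p6) held the windows of 4 of the 10 members, each 300 bases long, with 250 bases before and 50 after the annotated start. The windows lie at chr5:75978406-75978705 (minus strand) for Kdr, chr5:147725962-147726261 (minus strand) for Flt1, chr4:94739039-94739338 (plus strand) for Tek and chr4:118489800-118490099 (minus strand) for Tie1. Capitals mark the letters GGAAG, a core bound by ETS transcription factors, on either strand.
Kdr: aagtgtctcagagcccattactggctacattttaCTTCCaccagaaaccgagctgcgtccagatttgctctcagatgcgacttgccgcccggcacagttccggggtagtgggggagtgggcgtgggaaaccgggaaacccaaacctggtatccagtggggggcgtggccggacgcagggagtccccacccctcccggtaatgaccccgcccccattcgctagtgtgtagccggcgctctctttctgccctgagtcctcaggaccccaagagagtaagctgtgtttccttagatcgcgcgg
Flt1: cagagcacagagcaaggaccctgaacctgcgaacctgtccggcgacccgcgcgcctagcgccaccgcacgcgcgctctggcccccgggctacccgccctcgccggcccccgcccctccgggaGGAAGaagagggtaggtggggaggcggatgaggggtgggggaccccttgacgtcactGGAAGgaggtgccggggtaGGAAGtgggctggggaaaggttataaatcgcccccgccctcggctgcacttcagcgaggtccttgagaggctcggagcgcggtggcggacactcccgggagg
Tek: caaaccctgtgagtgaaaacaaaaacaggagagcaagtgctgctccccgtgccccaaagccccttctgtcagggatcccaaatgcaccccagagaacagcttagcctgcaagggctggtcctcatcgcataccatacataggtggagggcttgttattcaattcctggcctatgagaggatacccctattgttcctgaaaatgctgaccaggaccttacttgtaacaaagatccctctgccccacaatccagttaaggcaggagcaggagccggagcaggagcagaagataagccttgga
Tie1: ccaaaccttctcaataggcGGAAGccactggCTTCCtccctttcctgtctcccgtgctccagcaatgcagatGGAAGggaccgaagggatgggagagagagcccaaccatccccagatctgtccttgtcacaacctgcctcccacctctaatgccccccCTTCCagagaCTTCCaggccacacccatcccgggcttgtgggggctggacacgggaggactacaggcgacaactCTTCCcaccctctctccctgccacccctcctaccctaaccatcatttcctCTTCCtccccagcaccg
The letters occurred 1 time in the window of Kdr, 3 times in that of Flt1, 0 times in that of Tek and 7 times in that of Tie1. They stood in 71.4% of all 32851 promoter windows of the table, so their presence is common. The SOX letters ACAAAG or ACAATG occurred 1 time in the window of Tek and in none of the other 3 windows, against 28.6% of all windows. The GATA letters AGATAA or TGATAA occurred 1 time in Tek, against 18.6% of all windows, and the TATA box letters TATAAA 1 time in Flt1, against 13.6%. All were searched on both strands, and a match or its absence describes these letters in this window only.

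All 10 genes were higher in mesenchyme than in urothelium, and all 3 mesenchyme arrays exceeded all 3 urothelium arrays for each of them. Genes were tested on log2(signal + 45) with limma, whose adjusted p had to be under 0.05, and a gene with several probe sets was represented by its brightest. By that test 8.91% of all genes tested were higher in mesenchyme, and 18.1% of all genes had every mesenchyme array above every urothelium array. The members were chosen with earlier results of these data known, so their excess over these shares is no independent finding. The log2 difference, mesenchyme minus urothelium, had a median of 3.79 over the 10 members, with a range of 2.20 to 5.78, while the median over all genes was 0.11. In bulk tissue, fewer endothelial cells in urothelium and less of each RNA per cell cannot be told apart.

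**Figure D1:**
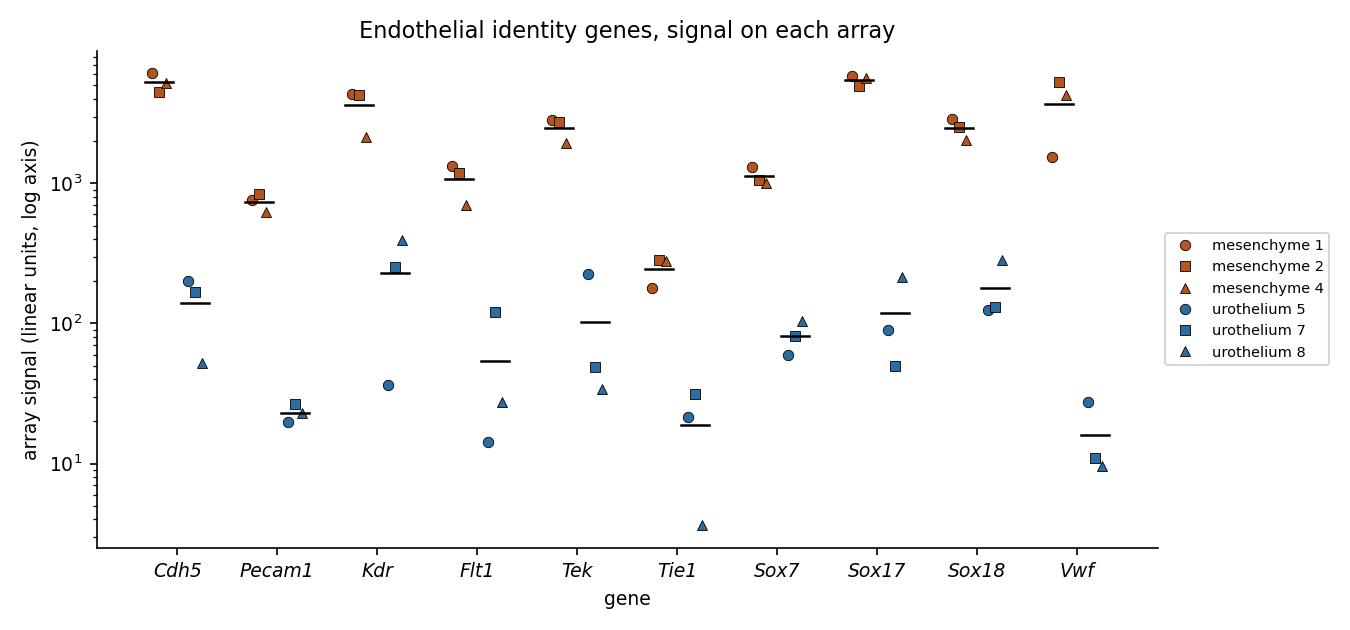
Array signal (linear units on a log axis) of the 10 endothelial identity genes on each of the 3 mesenchyme arrays (orange) and 3 urothelium arrays (blue), with black bars at the group means. For each gene the lowest mesenchyme array lies above the highest urothelium array, by a factor of 5.46 (Kdr) to 56.2 (Vwf).

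Among the receptors of VEGF, Kdr had signals of 4377, 4260 and 2160 on mesenchyme arrays 1, 2 and 4, against 36.6, 252 and 396 on urothelium arrays 5, 7 and 8. Mesenchyme 4 was the low array of its compartment, and the urothelium arrays spread more than 10-fold without reaching it. The log2 difference of Kdr was 3.98 ± 0.59 (SE, limma adjusted p = 0.000839). Flt1 had 1326, 1191 and 697 on the mesenchyme arrays, against 14.3, 120 and 27.5 on the urothelium arrays. Mesenchyme 4 was again the lowest of its compartment, and the groups did not overlap (log2 difference 3.60 ± 0.50, adjusted p = 0.000540 by limma).

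Tek, the angiopoietin receptor gene, had 2813, 2750 and 1935 on the mesenchyme arrays, against 225, 48.8 and 33.8 on the urothelium arrays. Urothelium 5 carried most of what remained of Tek signal in that compartment, where for Kdr the same array was the lowest. The log2 difference of Tek was 4.32 ± 0.51 (limma adjusted p = 0.000158). Tie1, the partner receptor gene, had 178, 284 and 278 on the mesenchyme arrays, against 21.4, 31.4 and 3.63 on the urothelium arrays. Its difference of 2.20 ± 0.37 (adjusted p = 0.00190 by limma) was the smallest of the 10 on this scale, where the constant of 45 is larger than every one of its urothelium signals. The same holds for the urothelium signals of Vwf and Pecam1. The ratio of mean signals, which leaves out that constant, was 13.1 for Tie1, 15.8 for Kdr, 19.8 for Flt1 and 24.4 for Tek. That of Tie1 was again the lowest of the 10, close to Sox7 and Sox18 (both 13.8).

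Cdh5, the VE-cadherin gene, had 6102, 4511 and 5200 on the mesenchyme arrays, against 202, 168 and 52.5 on the urothelium arrays. The mesenchyme arrays lay close together, and the lowest was 22.4 times the highest urothelium array. The log2 difference was 4.94 ± 0.42 (limma adjusted p = 1.97e-05). Pecam1, the CD31 gene, had 763, 839 and 623 on the mesenchyme arrays, against 19.8, 26.7 and 23.0 on the urothelium arrays. Pecam1 had the least spread among urothelium arrays of the 10 genes (SD 3.47), and differed by 3.52 ± 0.38 (adjusted p = 9.59e-05 by limma).

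By the probe sets used for the genes, Sox17 differed more between the compartments than Sox18 and Sox7, though no test between genes was run. Sox17 had 5811, 4977 and 5667 on the mesenchyme arrays, against 89.2, 49.6 and 215 on the urothelium arrays, with a log2 difference of 5.21 ± 0.42 (limma adjusted p = 1.41e-05). Sox18 had 2888, 2541 and 2032 on the mesenchyme arrays, against 124, 131 and 284 on the urothelium arrays, and differed by 3.55 ± 0.40 (adjusted p = 0.000120 by limma). Sox7 had 1316, 1061 and 1004 on the mesenchyme arrays, against 59.6, 81.6 and 104 on the urothelium arrays, and differed by 3.21 ± 0.39 (limma adjusted p = 0.000221). The groups did not overlap for any of them, and urothelium 8 had the highest urothelium signal of all 3. The value of Sox17 comes from a probe set of a kind (_x_at) that can also bind other transcripts. With such probe sets left out, a choice made after seeing the data, it was 1.54 (adjusted p = 0.0206 by limma). That lay below the values of Sox18 and Sox7.

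Vwf had 1540, 5309 and 4273 on the mesenchyme arrays, against 27.4, 10.9 and 9.67 on the urothelium arrays. Mesenchyme 1 stood apart as the low array of its compartment, yet it was 56.2 times the highest urothelium array. The log2 difference was 5.78 ± 0.50 (limma adjusted p = 2.34e-05), the largest of the 10 on this scale and rank 4 of the 18193 genes by difference towards mesenchyme. Sox17 had rank 30, Cdh5 rank 47 and Tie1, the lowest member, rank 787. With the constant of 45 and the brightest probe set, the members ran in order of difference Vwf, Sox17, Cdh5, Tek, Kdr, Flt1, Sox18, Pecam1, Sox7 and Tie1, and 6 of the 9 steps between neighbours were smaller than the larger of their SEs. The order depended on these choices. With a constant of 1, Tie1 (4.02) lay above Sox18 (3.88) and Sox7 (3.79), with a constant of 179 Sox17 (4.29) lay above Vwf (4.16), and with probe sets averaged Sox7 (1.87) lay below Tie1 (2.20).

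The members did not move together from array to array within mesenchyme. Mesenchyme 1 had the highest signal for 7 members, mesenchyme 2 for Pecam1, Tie1 and Vwf, and mesenchyme 4 for none. Mesenchyme 4 was lowest for 6 members, while mesenchyme 1 was lowest for Tie1 and Vwf. Averaged over the 10 members, log2 signals lay at 0.03, 0.13 and −0.16 from the compartment mean on mesenchyme 1, 2 and 4, and no mesenchyme array was low for all members. In urothelium, array 5 was highest for 3 members, array 7 for 3 and array 8 for 4, with mean deviations of −0.09, 0.05 and 0.04.

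In the 3' to 5' ratio of the actin control, mesenchyme 1 and urothelium 5 stood apart. Whether RNA quality or amplification differed was not tested. The signal of the 3' actin control probe set was 8.40 times that of the 5' one on mesenchyme 1 and 8.60 times on urothelium 5, while it was 2.29 to 4.89 times on the remaining 4 arrays. Without both, all 10 members were higher in mesenchyme again. Vwf then differed by 6.44, Kdr by 3.09 and Tek by 4.77. Arrays correlated across all genes with an r (Pearson) of 0.940 to 0.983 within mesenchyme, 0.959 to 0.973 within urothelium and 0.864 to 0.899 across compartments. Marker genes went with the labels of the layers. In mesenchyme, 14 of 14 measured fibroblast and mesenchyme genes and 7 of 8 smooth muscle genes were higher, against 8.91% of all genes tested. In urothelium, 14 of 16 epithelial genes were higher, against 5.80% of all genes tested. These lists were chosen with earlier results of these data known, so they are no independent check of the labels.

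Each probe set was also tested by itself across all 45037 probe sets that are not controls, of which 4.46% were higher in mesenchyme. Of the 16 member probe sets 12 were higher in mesenchyme, 0 were higher in urothelium and 4 did not pass limma's test. The probe sets that did not pass belonged to Cdh5, Flt1, Sox7 and Sox17, each of which had another probe set that passed. For 2 of these 4 the compartments did not overlap. Among genes, 18.1% had every mesenchyme array above every urothelium array.

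**Figure D2:**
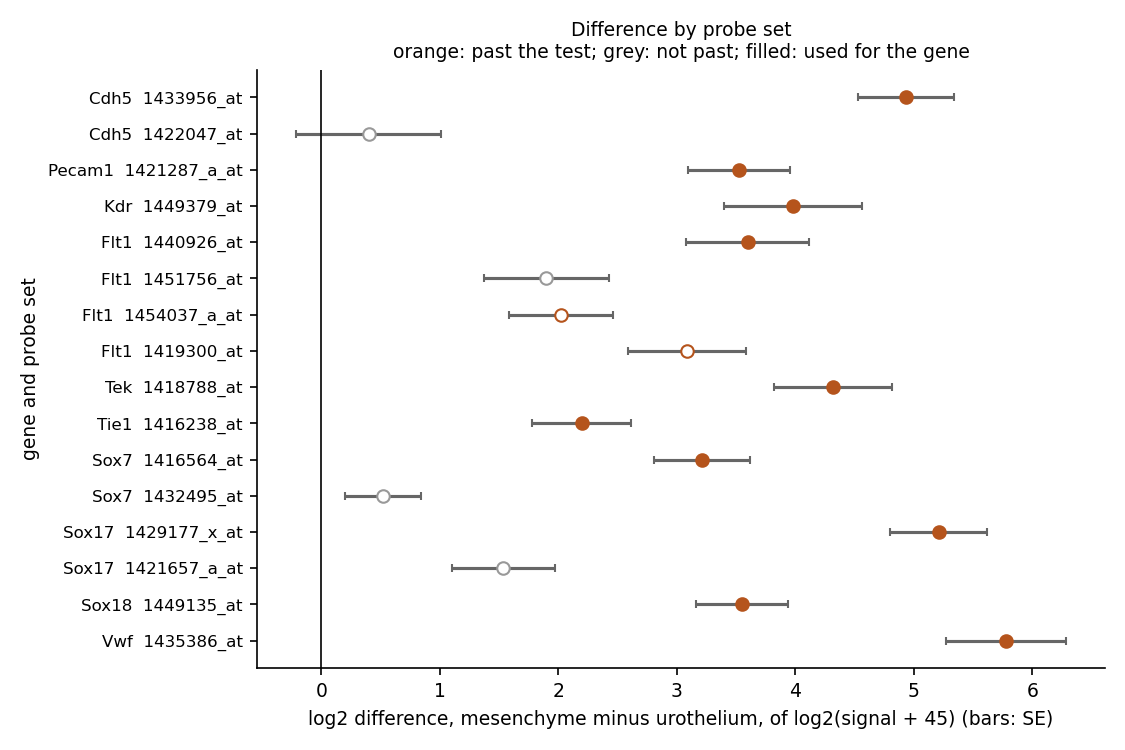
Log2 difference (mesenchyme minus urothelium, of log2(signal + 45)) of the 16 member probe sets with the moderated SE as bars. Filled points are the probe sets used for the gene, and orange points passed the test; the points used for the genes run from 2.20 (Tie1) to 5.78 (Vwf), and the 4 grey points lie between 0.40 and 1.90.

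The other Cdh5 probe set had 14.0, 290 and 123 on the mesenchyme arrays, against 31.1, 99.3 and 87.0 on the urothelium arrays. It was dim and its groups overlapped (log2 difference 0.40 ± 0.61, limma adjusted p = 0.826). The other Sox7 probe set was also dim, with 31.7, 81.2 and 30.6 on the mesenchyme arrays, against 30.8, 23.3 and 2.85 on the urothelium arrays. Its difference of 0.52 ± 0.32 did not pass (adjusted p = 0.470 by limma). The other Sox17 probe set had 281, 285 and 235 on the mesenchyme arrays, against 45.7, 54.6 and 91.7 on the urothelium arrays. These groups did not overlap and lay in the same direction as the brighter probe set, but the difference of 1.54 ± 0.44 did not pass among all probe sets (adjusted p = 0.0625 by limma).

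Flt1 was read by 4 probe sets, and the mesenchyme arrays lay above the urothelium arrays in each. Beside the brightest, probe set 1419300_at had 855, 333 and 273 on the mesenchyme arrays, against 8.18, 14.7 and 10.6 on the urothelium arrays, and differed by 3.09 ± 0.50 (limma adjusted p = 0.00295). Probe set 1454037_a_at had 553, 553 and 383 on the mesenchyme arrays, against 69.0, 116 and 79.2 on the urothelium arrays (2.02 ± 0.44, adjusted p = 0.0169 by limma). That call was lost without mesenchyme 2, urothelium 5, urothelium 7, urothelium 8 or both mesenchyme 1 and urothelium 5, with limma's adjusted p of 0.0504 to 0.0879 and differences of 1.84 to 2.17. Probe set 1451756_at had 781, 353 and 452 on the mesenchyme arrays, against 212, 82.9 and 50.9 on the urothelium arrays (1.90 ± 0.53, adjusted p = 0.0561 by limma). Which Flt1 transcripts, full-length or soluble, each probe set binds was not examined. With the log2 signals of a gene's probe sets averaged, all 10 members were again higher in mesenchyme, with Cdh5 at 2.67, Flt1 at 2.65, Sox17 at 3.37 and Sox7 at 1.87.

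For the probe sets used for the genes, the members' remaining signal in urothelium was a small share of that in mesenchyme. It ran from 0.432% for Vwf and 2.15% for Sox17 to 7.26% for Sox7 and 7.62% for Tie1, with a median of 4.57% over the 10 members. The members' other probe sets gave 2.30% (Flt1 1419300_at) to 50.9% (Cdh5 1422047_at), with Sox17 1421657_a_at at 24.0%. The same share had a median of 10.9% over 25 other endothelial surface and junction genes and 14.1% over 13 endothelial transcription factor genes. It was 2.87% over the 14 fibroblast and mesenchyme genes and 2.27% over the 8 smooth muscle genes. In the other direction, epithelial genes in mesenchyme had a median of 2.83% of their urothelium signal. Absence cannot be read from a low signal without detection calls, and how much of the remaining signal is background of the probe sets was not tested.

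Other endothelial genes, in lists that the members do not belong to, mostly lay in the same direction. These lists and those below were also chosen with earlier results of these data known, so their counts are no independent support. Which cells of the mesenchyme carried the signal of these genes was not tested. Some averaged above every member there, such as Ets1 at 14566, where the highest member, Sox17, averaged 5485. Of 25 surface and junction genes 24 were higher in mesenchyme and 0 in urothelium, against 8.91% and 5.80% of all genes tested, with a median log2 difference of 3.02. Cd34, a sialomucin of endothelial and blood progenitor cells, averaged 7328 ± 543 in mesenchyme and 139 ± 55.4 in urothelium (SD, n = 3 each), and differed by 5.37 ± 0.35 (SE). The adhesion molecule gene Mcam differed by 4.81 ± 0.42 and the C-type lectin receptor gene Cd93 by 4.68 ± 0.31. Limma's adjusted p for these 3 genes lay between 4.18e-06 and 2.52e-05. The gene of that list that did not pass was Calcrl, a receptor gene of the adrenomedullin system (log2 difference 1.19, limma adjusted p = 0.161).

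Of 13 endothelial transcription factor genes 11 were higher in mesenchyme and 0 in urothelium (median 2.66), against 8.91% and 5.80% of all genes tested. The 3 that differed most were genes of ETS factors, the family whose core letters are marked in the promoters above. Epas1, not an ETS gene, came close behind them (4.16), and the ETS gene Elk3 differed less (2.29). Any tie between these genes and the marked letters was not tested. Fli1 averaged 2913 ± 506 in mesenchyme and 59.8 ± 14.1 in urothelium (SD, n = 3 each), a log2 difference of 4.81 ± 0.38. Erg differed by 4.27 ± 0.51 and Ets1 by 4.22 ± 0.29, and limma's adjusted p for the 3 genes lay between 5.58e-06 and 0.000172. The factors that did not pass were Etv2, an ETS factor that acts early in the making of endothelium (0.49, limma adjusted p = 0.568), and Gata2 (−0.36, adjusted p = 0.442 by limma). Each Gata2 urothelium array exceeded each mesenchyme array.

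**Figure D3:**
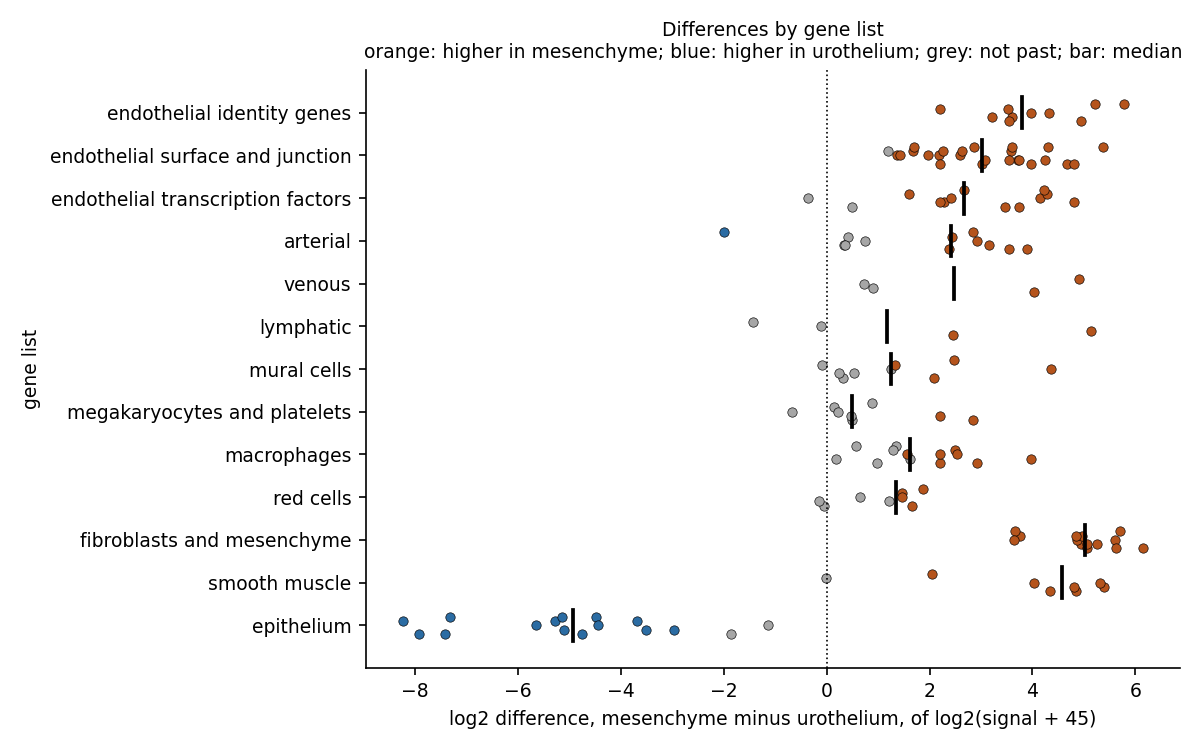
Log2 differences (mesenchyme minus urothelium, of log2(signal + 45)) of single genes in the endothelial identity list and 12 further lists; black bars are list medians, orange and blue points passed the test towards mesenchyme and urothelium, and grey points did not pass. The endothelial identity genes lie between 2.20 and 5.78 and the epithelial genes between −8.24 and −1.14.

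Genes tied to vessel type were more mixed. Of 12 arterial genes 7 were higher in mesenchyme and 1 in urothelium (median 2.41), against 8.91% and 5.80% of all genes tested. The VEGF co-receptor gene Nrp1 differed by 3.88 ± 0.33, the connexin gene Gja4 by 3.55 ± 0.41 and the kinase gene Bmx by 3.15 ± 0.38, with limma's adjusted p between 2.03e-05 and 0.000195. Efnb2, the ephrin-B2 gene that marks arteries and is also used by epithelia, went the other way. It averaged 8864 ± 1197 in mesenchyme and 35669 ± 8124 in urothelium (SD, n = 3 each), a log2 difference of −1.99 ± 0.26 (limma adjusted p = 0.000387).

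Of 4 venous genes 2 were higher in mesenchyme, where the share over all genes tested was 8.91%. Nrp2, a co-receptor gene also expressed outside vessels, differed by 4.91 ± 0.28 and Aplnr, the apelin receptor gene, by 4.03 ± 0.52 (limma adjusted p = 2.16e-06 and 0.000318). Nr2f2 (0.72, limma adjusted p = 0.102) and Ephb4 (0.91, limma adjusted p = 0.255) did not pass. Aplnr had 14245, 41858 and 40845 on mesenchyme arrays 1, 2 and 4, so that mesenchyme 1 was its low array, as for Vwf. Of 4 measured lymphatic genes 2 were higher in mesenchyme: Lyve1, a hyaluronan receptor gene of lymphatic endothelium and some macrophages (5.14 ± 0.49), and Flt4, the VEGF-C receptor gene (2.45 ± 0.43), with limma's adjusted p of 3.92e-05 and 0.00245. Prox1, the lymphatic master factor gene, did not pass and its difference had the opposite sign (−1.43, limma adjusted p = 0.118), with all urothelium arrays above all mesenchyme arrays.

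Of 8 VEGF and angiopoietin ligand genes 6 were higher in mesenchyme and 0 in urothelium (median 2.49), against 8.91% and 5.80% of all genes tested. Vegfd, whose mouse product binds the Flt4 receptor, differed by 4.35 ± 0.59, Pgf, the gene of a ligand of the Flt1 product, by 3.95 ± 0.50 and Angpt1, the gene of the activating ligand of the Tek product, by 3.38 ± 0.33 (limma adjusted p between 4.75e-05 and 0.000484). Angpt2, whose product competes with it, had 8051, 2450 and 2808 on the mesenchyme arrays, against 1003, 1250 and 1264 on the urothelium arrays, and differed by 1.67 ± 0.43 (adjusted p = 0.0226 by limma). Vegfa, the ligand gene for both VEGF receptors, had 623, 4145 and 2080 on the mesenchyme arrays, against 301, 566 and 1465 on the urothelium arrays. Its groups overlapped, and the difference of 1.41 ± 0.68 did not pass (limma adjusted p = 0.234). Without urothelium 7 the number of ligand genes higher in mesenchyme was 4.

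**Figure D4:**
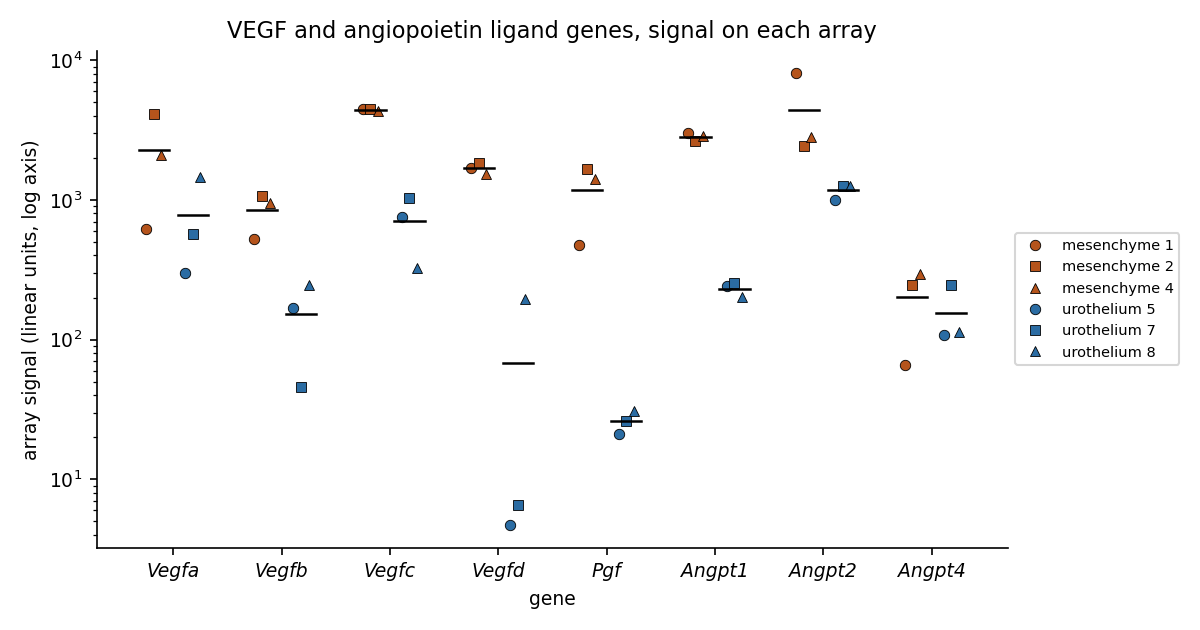
Array signal (linear units on a log axis) of the 8 VEGF and angiopoietin ligand genes on each of the 3 mesenchyme arrays (orange) and 3 urothelium arrays (blue), with black bars at the group means. Vegfa and Angpt4 overlap between compartments, and the mesenchyme arrays lie above the urothelium arrays for the other 6, as they do for 18.1% of all genes.

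Some members are also expressed by blood cells: Vwf and Pecam1 by megakaryocytes and platelets, and Pecam1 by macrophages. Of 8 measured megakaryocyte and platelet genes 2 were higher in mesenchyme, against 8.91% of all genes tested, with a median log2 difference of 0.49. Pf4 had 1383, 3226 and 2122 on mesenchyme arrays 1, 2 and 4, against 211, 457 and 169 on the urothelium arrays, and differed by 2.84 ± 0.46, and Ppbp differed by 2.20 ± 0.60 (limma adjusted p = 0.00140 and 0.0308). Without mesenchyme 2, urothelium 7 or urothelium 8 the count was 1. The summed signal of the 8 measured genes was 3937 to 6494 on mesenchyme arrays and 1484 to 2284 on urothelium arrays. Itga2b, the platelet integrin gene, did not pass (0.89, limma adjusted p = 0.190), nor did Gp9 (0.15, adjusted p = 0.913 by limma).

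Of 13 macrophage genes 7 were higher in mesenchyme (median 1.62), where the share over all genes tested was 8.91%. The summed signal of the macrophage genes was 10846 to 16791 on mesenchyme arrays and 1813 to 1908 on urothelium arrays. Csf1r, the receptor gene of macrophage growth factor, differed by 3.97 ± 0.34, Mrc1 by 2.93 ± 0.33 and the chemokine receptor gene Cx3cr1 by 2.54 ± 0.61 (limma adjusted p between 2.21e-05 and 0.0162). Of 9 mural cell genes, which mark the pericytes around vessels, 4 were higher in mesenchyme (median 1.24), with a summed signal of 9960 to 21929 on mesenchyme arrays and 4039 to 7580 on urothelium arrays. Pdgfrb, also expressed by fibroblasts, differed by 4.36 ± 0.48 and the potassium channel genes Kcnj8 and Abcc9 by 2.47 ± 0.51 and 2.09 ± 0.38 (limma adjusted p between 0.000112 and 0.00658). The part of blood and mural cells in the members' signal was not tested.

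Red cell genes divided otherwise: 4 of 8 measured were higher in mesenchyme (median 1.34), against 8.91% of all genes tested. They were led by Hbb-bh1 (1.87 ± 0.45), Alas2 (1.66 ± 0.40) and Hba-x (1.47 ± 0.41), with limma's adjusted p between 0.0162 and 0.0334. Hbb-y averaged 70227 ± 9227 in mesenchyme and 74564 ± 24350 in urothelium (SD, n = 3 each) and did not pass (log2 difference −0.05, limma adjusted p = 0.950). The summed red cell signal was 70805 to 89441 on mesenchyme arrays and 57338 to 104019 on urothelium arrays, so the ranges overlapped. Hbb-y made up most of that sum on every array, so the overlap describes Hbb-y more than the other red cell genes. The summed signal of the 10 endothelial members was 23870 to 27723 on mesenchyme arrays and 819 to 1149 on urothelium arrays. The red cell count was 0 without urothelium 7, 1 without mesenchyme 4 and 2 without mesenchyme 1, mesenchyme 2, urothelium 5 or both mesenchyme 1 and urothelium 5.

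Outside all lists, the genes whose log2 signals over the 6 arrays followed the mean of the 10 members most closely were Tgfb3, Gpr182, Emilin1, Tmem204 and Nell1, with Pearson's r of 0.998 to 0.9998. The arrays fall into the compartments, so such an r mainly reflects a difference between them with little spread, and it is given as a description. Tgfb3, a TGF-beta ligand gene, averaged 5473 ± 801 in mesenchyme and 247 ± 7.72 in urothelium, and Tmem204 averaged 2531 ± 231 in mesenchyme and 189 ± 4.17 in urothelium (SD, n = 3 each). Among the members themselves, the r with the mean of the other 9 ran from 0.924 for Kdr to 0.9996 for Pecam1.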

How the data were processed

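The authors deposited a linear intensity (signal) for 45101 probe sets on 6 arrays. GCOS is the software named per the submitters' processing notes; algorithm, settings and genome build were not given in the sources used here. Every array had a 2% trimmed mean of 1500, so no further scaling was applied. Arrays scaled this way carry no information on total RNA, and background compresses differences of dim probe sets.

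After 64 control probe sets were left out, 34945 had a single symbol in the platform annotation, 932 had several and 9160 had none. RefSeq identifiers matched 34741 of the 34945 and changed 0 symbols. Each of 18193 genes took its probe set with the highest mean log2 signal. The values were log2(signal + 45), the constant being the rounded 25th percentile of all signals, and were fitted with limma 3.58.1 in R 4.3.3 (lmFit, eBayes with an intensity trend), with Benjamini-Hochberg adjustment over all genes, or over 45037 probe sets. The scale understates differences of dim genes. The fit was tested on simulated data. No batch was tested, since the labels name none.

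The members and lists were chosen with earlier results of these data known. The 13 other lists held 148 genes, of which 142 were measured. The text names all members, from each list up to 3 genes past the test by size of difference, any gene past it against its list's majority, Vegfa, Pgf, Angpt1 and Angpt2, and the 5 genes most like the members in pattern; other genes were named after their values were seen. Alternatives were pseudocounts of 1 and 179, quantile normalization, median centring, array weights, a 2-fold threshold, no intensity trend, probe sets averaged by gene, dim genes filtered out, no _x_at or _s_at probe sets, and leaving out arrays.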

Additional observations from a re-analysis of the deposited data

How the results depend on the processing

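Under 17 alternatives each member that could be tested was higher in mesenchyme and past limma's test, in 164 of 164 combinations of member and alternative. These combinations are not independent, and some could not change a call. The 2-fold threshold reused the main fit, where every member differed by more than that. Averaging left the differences of the 6 members with 1 probe set unchanged. Leaving out _x_at and _s_at probe sets changed only that of Sox17. The count of members was 4 with only genes above the median signal, since the other 6 were dimmer and were left out there. That filter used the mean over all arrays, which the high mesenchyme signals of the members raise. With the larger pseudocount of 179 Vwf was 4.16, Pecam1 2.18, Flt1 2.41 and Tie1 1.10, and with that of 1 Vwf was 7.74 and Tie1 4.02. Median centring lowered every difference by about 0.19. The count of member probe sets was 10 to 14. Over all genes, the number past the test was 5051 with array weights, or 2996 higher in mesenchyme and 2055 in urothelium, and 998 were higher in mesenchyme once genes under the median signal were dropped. Leaving out single arrays gave 660 (without urothelium 7) to 1059 genes higher in urothelium. Among all probe sets, the call of Flt1 1454037_a_at was lost under 5 alternatives, each leaving out arrays (1.84 to 2.17), and that of Tie1 without urothelium 8 (2.01). Flt1 1451756_at passed under 6 alternatives and the other Sox17 probe set under 2. No paired analysis was run, because the labels do not say whether samples of the compartments came from the same bladders. With 3 arrays a compartment precision is limited, and with no detection calls the lowest urothelium signals have no firm order.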
